A study of Homo sapiens with 12 samples.

Results

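Aminoacyl-tRNA synthetases attach amino acids to their tRNAs. The set described here was fixed by name as 37 genes, namely 19 cytosolic enzymes, 16 mitochondrial enzymes (names ending in 2) and the scaffold proteins AIMP1 and AIMP2. Of these, 35 were measured by a probe set that the array annotation gives to a single gene, out of 22392 genes in all. They comprised all 19 cytosolic enzymes, 15 of the mitochondrial enzymes and AIMP1. SARS2 lies only on probe sets with several symbols and AIMP2 was not listed in the annotation used, so neither was analysed here.

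The cells were HCC38, an established triple-negative breast cancer line, and 12 Human Gene 2.1 ST arrays were run, 3 for each of 4 groups. The groups were control (DMSO vehicle), erastin at 5 µM, tubacin at 5 µM, and both drugs together at the same doses. The sample labels give a treatment time of 18 h, while the study's text gives a longer one. All groups were the same parental line in culture with no genetic change. The comparisons address how the combined treatment differs from each drug alone. Erastin blocks system xC-, the antiporter that brings cystine into the cell in exchange for glutamate. Tubacin inhibits the deacetylase HDAC6. Nothing in the labels says that the 3 samples of a group were separate cultures, so the spread behind each p-value may be technical.

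Each cell keeps separate sets of synthetases for the cytosol and for mitochondria, all encoded in the nucleus. Cytosolic enzymes load the tRNAs used by the general translation machinery, several of them within a multi-synthetase complex held together by AIMP1 and AIMP2, and the mitochondrial enzymes serve only the few proteins encoded by mitochondrial DNA. GARS1 and KARS1 make both forms from one gene and were counted as cytosolic, and EPRS1 joins the glutamate and proline enzymes in a single chain. When an amino acid runs short, uncharged tRNA activates the kinase GCN2 (EIF2AK4) and the transcription factor ATF4 is made, whose known targets include genes of amino acid synthesis and transport and a number of cytosolic synthetases.

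Values were log2 RMA values, on which 1 unit is a 2-fold difference and which cannot be compared between probe sets. Array medians lay between 3.06 and 3.12, and correlations between samples were 0.982 to 0.988 within groups and 0.971 to 0.986 between groups. Since levels of different probe sets cannot be compared, the labelled cell type was not judged from marker levels. Each mean level of markers below is over the same probe sets in every group and serves only to compare the groups. The mean level of 6 epithelial markers was 7.60 to 7.65 in control and 7.89 to 8.09 with both drugs, where 4 rose. Of these, KRT8 passed narrowly (limma adjusted p = 0.0433). KRT7, at -0.21, and EPCAM, at 0.01, did not pass. That of 4 fibroblast markers was 5.05 to 5.11 in control, 4.62 to 4.74 with erastin, where COL1A1 and COL1A2 fell, and 4.53 to 4.63 with both drugs, where 3 fell. That of 3 leukocyte markers was 3.39 to 3.51 in control and 3.94 to 4.18 with both drugs, where CD68 (a lysosomal protein that other cells also make) rose by 1.87 ± 0.10 (SE) and PTPRC and CD3E did not pass the test. No endothelial marker of 2 passed, and neither did the receptors ESR1 and PGR. Over all genes, 4.41% fell with erastin, and 14% rose and 17.1% fell with both drugs. The part of these markers in the results was not tested. All 12 samples are labelled as the single line HCC38, and no other cell type is named. In bulk RNA, fewer cells making a transcript and less RNA per cell cannot be told apart.

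Scaling mattered for the samples given both drugs. When each array was shifted to the median of 8 reference genes, every change with both drugs against control moved by -0.24, against erastin by -0.24 and against tubacin by -0.23, and every interaction moved by -0.23. Changes with erastin or tubacin alone moved by 0.00146 and -0.01. The median was taken over levels, so it followed the genes of middle level, mainly TBP and PGK1. With both drugs against control, TBP changed by -0.07 and PGK1 by 0.57. The median of the 8 changes was -0.13, which would shift values the other way. ACTB (beta-actin) itself was 1.19 ± 0.21 (SE) lower with both drugs than in control, so scaling to ACTB alone added 1.19 to those changes and left no synthetase called lower in any comparison. Of the 8 reference genes, 5 passed the test with both drugs against control (limma, adjusted p under 0.05). ACTB, PPIA (-0.59) and HPRT1 (-0.35) fell, and PGK1 and GAPDH (0.21) rose. Neither scaling therefore rests on unchanged genes. ACTB scaling also rests on 1 probe set, whose changes had an SE of 0.21, beside a median of 0.136 over all genes. Splits under both scalings are given beside the main ones to show how far the calls depend on scaling.

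**Figure D1:**
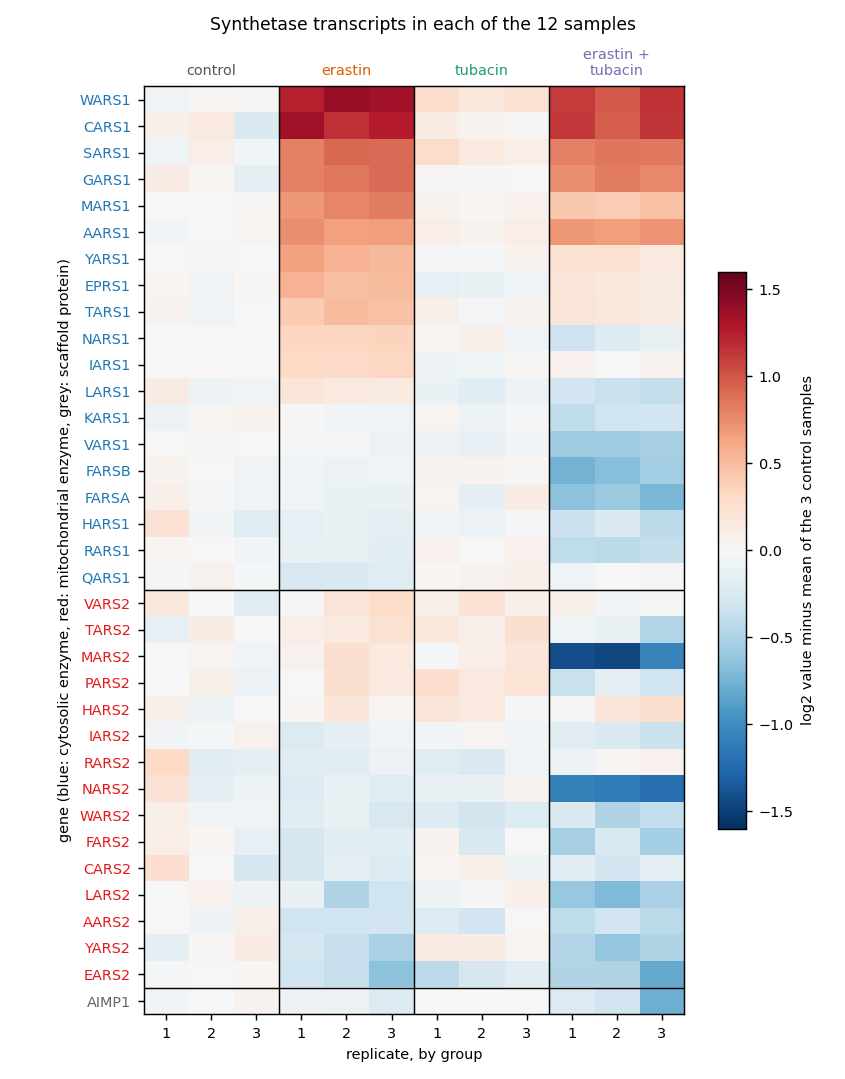
Colour gives the log2 RMA value of each sample (columns, 3 replicates per group) minus the mean of the 3 control samples, for 19 cytosolic enzymes (blue names), 15 mitochondrial enzymes (red names) and AIMP1 (grey name). WARS1 and CARS1 were more than 1 unit above control with erastin and near that with both drugs, whereas MARS2 and NARS2 were low only in the 3 columns of erastin plus tubacin (with ACTB scaling, 1.19 is added to those columns on average).

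With erastin alone, 11 of the 19 cytosolic synthetases rose, 1 fell and 7 did not pass the test (limma, Benjamini-Hochberg adjusted p under 0.05 over all genes). Over all genes, 3.94% rose and 4.41% fell. The cytosolic split was 9 and 0 with the reference genes and 2 and 0 with ACTB. ACTB scaling moved the erastin changes by only 0.10. ACTB itself varied between samples, reading 5.36, 6.13 and 6.32 with tubacin. The SE of its changes was 0.21, against 0.07 for WARS1. The lower count with ACTB therefore does not show smaller rises. None of the 15 mitochondrial enzymes rose (none higher at an unadjusted p under 0.05 in limma or in the methods' t-test either) and 2 fell. The median change was 0.35 for the cytosolic and -0.17 for the mitochondrial enzymes, beside -0.0087 over all genes. Without control 1 the mitochondrial median was -0.08. In single samples the cytosolic median lay 0.34 to 0.35 above the control mean in all 3 erastin samples, against -0.00520 to 0.00864 in the control samples.

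WARS1, the tryptophanyl-tRNA synthetase, and CARS1, the cysteinyl-tRNA synthetase, showed the largest rises. WARS1 read 7.10, 7.19 and 7.17 in control, 8.40, 8.55 and 8.51 with erastin, 7.44, 7.34 and 7.39 with tubacin, and 8.27, 8.14 and 8.31 with both. All erastin and combination samples lay clearly above every control or tubacin sample. The rise with erastin was 1.33 ± 0.07 (SE; limma adjusted p = 6.02e-06). CARS1, which loads the amino acid whose supply erastin limits, read 6.48, 6.55 and 6.17 in control, 7.76, 7.57 and 7.65 with erastin, 6.52, 6.46 and 6.43 with tubacin, and 7.53, 7.37 and 7.54 with both. Its groups without erastin overlapped one another and lay below all samples with erastin. It rose by 1.26 ± 0.10 (SE; limma adjusted p = 8.25e-05) with erastin.

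SARS1 (serine) and GARS1 (glycine) followed. SARS1 read 7.96, 8.13 and 7.98 in control, 8.83, 8.94 and 8.93 with erastin, 8.32, 8.17 and 8.13 with tubacin, and 8.83, 8.88 and 8.87 with both. GARS1 read 9.40, 9.33 and 9.14 in control, 10.09, 10.13 and 10.19 with erastin, 9.31, 9.31 and 9.28 with tubacin, and 10.03, 10.12 and 10.06 with both. For both genes the erastin and combination samples formed one high set, with no overlap with control or tubacin. The rises with erastin were 0.88 ± 0.08 (SE; limma adjusted p = 0.000122) for SARS1 and 0.85 ± 0.08 (SE; limma adjusted p = 0.000151) for GARS1.

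MARS1, which supplies methionine both for starting and for extending proteins, read 9.25, 9.25 and 9.28 in control and 9.96, 10.04 and 10.08 with erastin. Its tubacin samples read 9.31, 9.29 and 9.32, and those with both drugs 9.69, 9.66 and 9.72. AARS1 (alanine) read 10.61, 10.66 and 10.71 in control, 11.40, 11.31 and 11.32 with erastin, 10.77, 10.71 and 10.77 with tubacin, and 11.35, 11.32 and 11.37 with both. MARS1 with both drugs stood between control and erastin without overlap, while the AARS1 samples with both drugs lay within the range of the erastin samples. With erastin MARS1 rose by 0.77 ± 0.06 (SE; limma adjusted p = 6.61e-05) and AARS1 by 0.69 ± 0.06 (SE; limma adjusted p = 0.000146).

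YARS1 (tyrosine) read 8.70, 8.67 and 8.71 in control, 9.34, 9.25 and 9.21 with erastin, 8.68, 8.67 and 8.75 with tubacin, and 8.94, 8.94 and 8.85 with both. EPRS1 (glutamate and proline) read 10.41, 10.32 and 10.40 in control, 10.94, 10.87 and 10.89 with erastin, 10.25, 10.27 and 10.31 with tubacin, and 10.59, 10.55 and 10.51 with both. Both genes were highest in all 3 erastin samples and intermediate with both drugs. YARS1 rose by 0.57 ± 0.07 and EPRS1 by 0.52 ± 0.06 (SE) with erastin. The other rises were TARS1 (threonine) at 0.47, NARS1 (asparagine) at 0.35 and IARS1 (isoleucine) at 0.32, of which NARS1 and IARS1 no longer passed the test after scaling to the reference genes (limma adjusted p = 0.164 and 0.151).

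QARS1, the glutaminyl-tRNA synthetase, went the other way from the other called cytosolic enzymes. It read 8.81, 8.91 and 8.81 in control, 8.59, 8.60 and 8.65 with erastin, 8.88, 8.90 and 8.93 with tubacin, and 8.77, 8.84 and 8.81 with both. The erastin samples were the lowest 3, and it fell by 0.23 ± 0.06 (SE; limma adjusted p = 0.0479). That call was lost when any 1 of the 12 samples was left out (changes -0.25 to -0.20, adjusted p up to 0.138). The cytosolic enzymes that did not pass with erastin were LARS1 (leucine) at 0.17, KARS1 (lysine) at -0.03, VARS1 (valine) at -0.05, both phenylalanine subunits FARSB and FARSA at -0.08 and -0.09, HARS1 (histidine) at -0.13 and RARS1 (arginine) at -0.14.

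Rises with erastin, called for 3.94% of all genes, were found in both structural classes. Synthetases divide by the fold of the catalytic domain into class I and class II. Of the cytosolic class I enzymes 5 of 9 rose with erastin and 1 fell, and of the cytosolic class II enzymes 5 of 9 rose and none fell, with medians of 0.32 and 0.35. EPRS1, which carries a domain of each class, was not counted in either.

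Among mitochondrial enzymes, YARS2 (tyrosine) and EARS2 (glutamate) fell with erastin. YARS2 read 7.00, 7.18 and 7.29 in control, 6.87, 6.78 and 6.64 with erastin, 7.29, 7.28 and 7.19 with tubacin, and 6.68, 6.54 and 6.68 with both. EARS2 read 7.19, 7.21 and 7.24 in control, 6.90, 6.84 and 6.56 with erastin, 6.79, 6.94 and 7.04 with tubacin, and 6.73, 6.73 and 6.40 with both. In both genes all erastin samples lay below all control samples, and for EARS2 the tubacin samples did too. YARS2 fell by 0.39 ± 0.09 (SE; limma adjusted p = 0.0288) and EARS2 by 0.45 ± 0.12 (SE; limma adjusted p = 0.0427). Neither call was firm. YARS2 lost it without control 2, control 3, erastin 2 or erastin 3 (adjusted p up to 0.106, changes -0.47 to -0.32). EARS2 lost it without any sample other than the third of the combination (adjusted p up to 0.144, changes -0.51 to -0.35), and both lost it after scaling to the reference genes (adjusted p = 0.181 and 0.176).

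Set side by side for the same amino acid, the cytosolic change with erastin lay above the mitochondrial one in 14 of 16 pairs. The widest gap was tryptophan, with 1.33 for WARS1 and -0.18 for WARS2, and cysteine came next with 1.26 for CARS1 and -0.21 for CARS2. Alanine had 0.69 for AARS1 and -0.32 for AARS2, and tyrosine 0.57 for YARS1 and -0.39 for YARS2. The exceptions were valine (VARS1 -0.05, VARS2 0.17) and histidine (HARS1 -0.13, HARS2 0.09), in which none of the 4 genes passed the test. EPRS1 and FARS2 each enter in 2 pairs, and no test was made over the pairs.

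**Figure D2:**
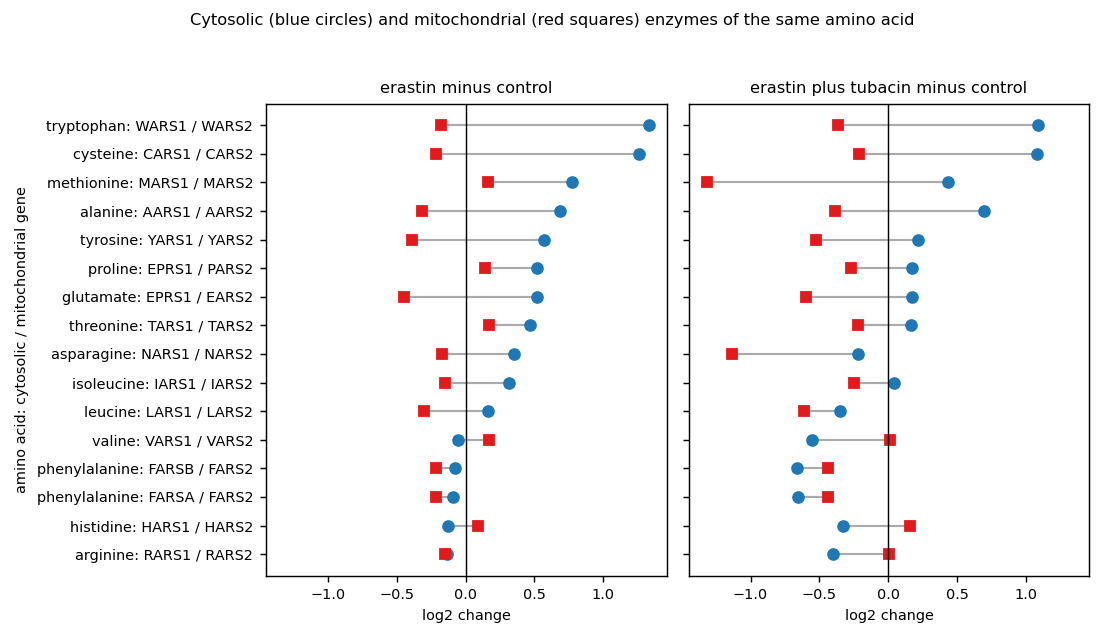
Each line joins the log2 change of a cytosolic enzyme (blue circle) and of the mitochondrial enzyme of the same amino acid (red square), on the left for erastin and on the right for erastin plus tubacin, both against the same control samples. The blue circle lay to the right in 14 of 16 pairs on the left panel and in 11 of 16 on the right, and the order within a pair does not depend on how the arrays are scaled.

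Promoter windows of RefSeq (GRCh38.p14, 250 bases before to 50 after the start) were found for 32 of the 37 genes, and not for AARS2, LARS1, VARS1, VARS2 and YARS1. They were searched on both strands for TGATGNAA, the core letters of the element that ATF4 binds together with C/EBP factors, and for TGACGTCA, the cyclic AMP response element. No single site can match both motifs. TGATGNAA was present for 7 of the 16 cytosolic enzymes with a window and 1 of 14 mitochondrial enzymes, beside 4.46% of all 27305 genes with windows. All 7 cytosolic genes were among the 10 with a window that rose with erastin, and the 6 with a window that did not rise had no match. Some genes have several windows, and a match is a description of letters only. The sites shown are those of the 7 cytosolic genes with a match, which were not the 7 largest rises with erastin. Each is read 5′ to 3′ on the strand that shows the motif, which is in capitals, with 11 bases on each side.
AARS1: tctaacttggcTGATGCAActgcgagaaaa
CARS1: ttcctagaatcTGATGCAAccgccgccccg
GARS1: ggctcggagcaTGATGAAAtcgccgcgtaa
IARS1: gcgcacggaggTGATGCAAcgcgctgaaaa
MARS1: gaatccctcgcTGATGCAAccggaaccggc
NARS1: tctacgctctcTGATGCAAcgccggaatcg
TARS1: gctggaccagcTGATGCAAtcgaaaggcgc

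These sites lay at chr16:70289675-70289704 (AARS1, gene on the minus strand), chr11:3057407-3057436 (CARS1, minus), chr7:30594834-30594863 (GARS1, plus), chr9:92293692-92293721 (IARS1, minus), chr12:57488053-57488082 (MARS1, plus), chr18:57621804-57621833 (NARS1, minus) and chr5:33440956-33440985 (TARS1, plus). Only in NARS1 does the printed strand equal the strand of the gene, and in the other 6 it is the opposite one. Counted from the start as 1, with the base before it as -1, the 8 letters ran from -187 to -180 in AARS1, -33 to -26 in GARS1, -13 to -6 in IARS1, -4 to 4 in MARS1, -2 to 6 in CARS1, 3 to 10 in TARS1 and 15 to 22 in NARS1. So 6 of the 7 lay at or close to the start, and AARS1 farther upstream. The letters were TGATGCAA in 6 of them, which 1.08% of all genes with a window hold, and this narrower form was looked at after the matches were seen.

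The mitochondrial match was in YARS2, a gene that fell with erastin, from -197 to -190 within chr12:32756076-32756105 (gene on the minus strand), and is shown as the counterexample, read on the gene's strand.
YARS2: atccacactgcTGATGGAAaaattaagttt
TGACGTCA was in none of the cytosolic or mitochondrial windows (0 of 16 and 0 of 14) and in 2.25% of all genes. Its single match in the set was in the window of AIMP2, from -69 to -62, whose transcript was not analysed here. WARS1, SARS1 and EPRS1 rose with erastin and had no match to TGATGNAA in this window. HARS1 and HARS2 face away from each other on chromosome 5 and their windows share 184 bases (chr5:140691321-140691504). HARS1 changed by -0.13 and HARS2 by 0.09 with erastin, and neither passed the test.

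With tubacin alone, none of the 19 cytosolic and 15 mitochondrial enzymes passed the test in either direction (limma), where 0.107% of all genes rose and 0.125% fell. At an unadjusted p under 0.05, limma gave 2 cytosolic enzymes higher and none lower, and 1 mitochondrial enzyme higher and 2 lower. The methods' t-test gave 2 higher and 2 lower among the cytosolic and 1 higher and 2 lower among the mitochondrial enzymes without adjustment, and none after Benjamini-Hochberg adjustment. The most positive and most negative differences were 0.23 ± 0.07 (SE) for WARS1 (limma adjusted p = 0.317) and -0.29 ± 0.12 (SE) for EARS2 (limma adjusted p = 0.444). Every tubacin sample of WARS1 was nevertheless above every control sample. Class medians were 0.02 for the cytosolic and -0.01 for the mitochondrial enzymes, and with 1 sample left out the latter ran from -0.05 (without control 3) to 0.02 (without control 1).

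With erastin plus tubacin the cytosolic enzymes split, 7 rising and 8 falling against control (5 and 8 with the reference genes, 17 and 0 with ACTB). Over all genes, 14% rose and 17.1% fell. No mitochondrial enzyme rose (none at an unadjusted p under 0.05 in limma or the methods' t-test) and 10 of 15 fell (12 with the reference genes, and 11 rising with ACTB). Medians were 0.04 for the cytosolic (-0.20 with the reference genes) and -0.37 for the mitochondrial enzymes (-0.61 with the reference genes), beside -0.0057 for all genes. Because this comparison and that with erastin use the same control samples, their values are given side by side only.

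**Figure D3:**
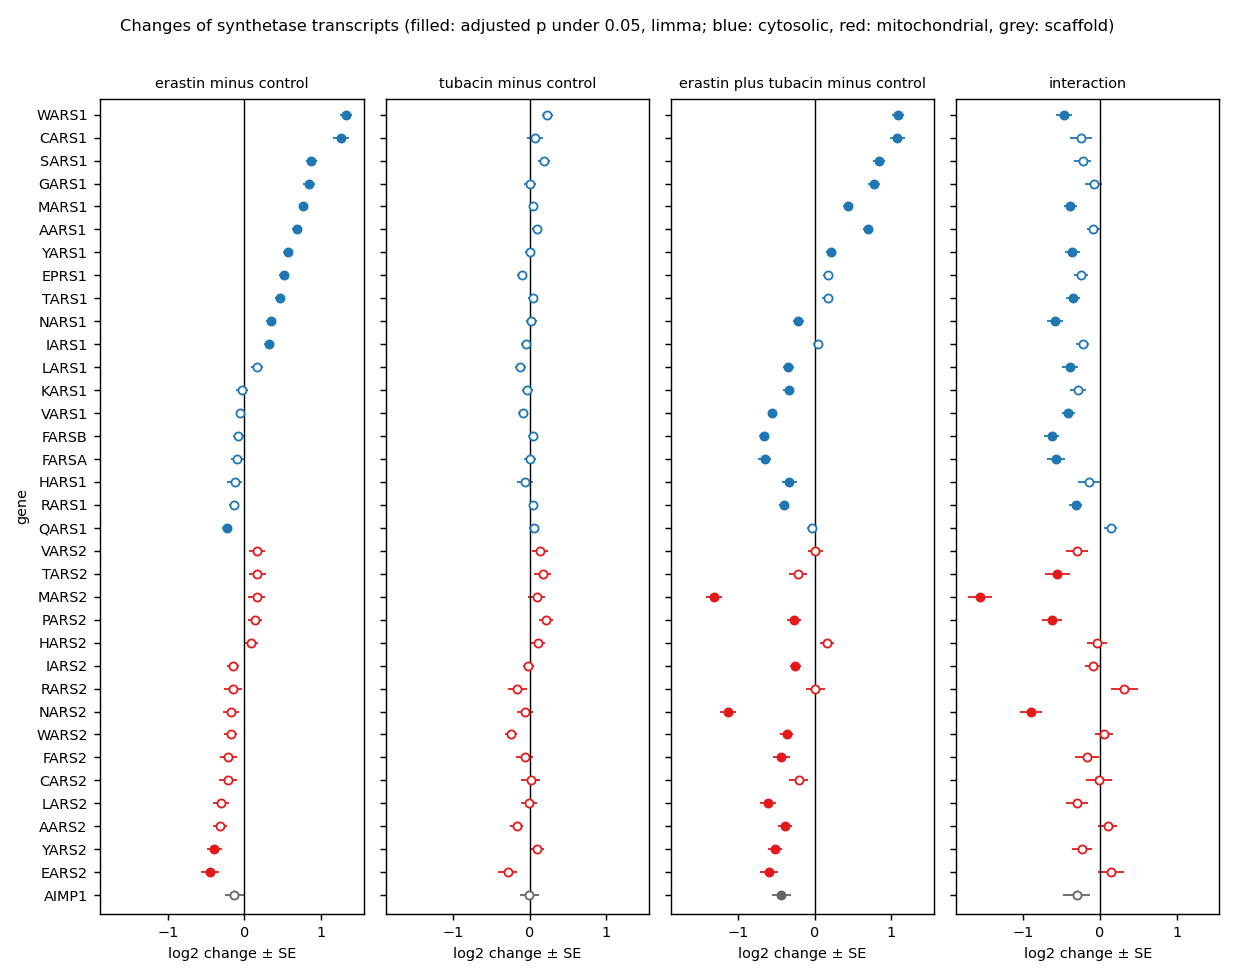
Points give the log2 change with its standard error for each of the 35 measured genes (blue cytosolic, red mitochondrial, grey AIMP1) in 4 comparisons, filled where the limma adjusted p was under 0.05. The panel for tubacin has no filled point, and the interaction panel has 14, all below 0 (ACTB scaling adds 0.909 to each interaction and turns most of them above 0).

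The cytosolic enzymes that rose with both drugs were WARS1 by 1.09 ± 0.07, CARS1 by 1.08 ± 0.10, SARS1 by 0.83 ± 0.08, GARS1 by 0.78 ± 0.08, AARS1 by 0.69 ± 0.06, MARS1 by 0.43 ± 0.06 and YARS1 by 0.21 ± 0.07 (SE; limma adjusted p from 1.58e-06 for WARS1 to 0.0281 for YARS1). The first 5 also passed after scaling to the reference genes. MARS1 did not, at 0.19 (adjusted p = 0.213), and YARS1 turned to -0.03. YARS1 also lost its call without control 2, control 3 or combination sample 1 or 2 (adjusted p up to 0.0825, changes 0.20 to 0.24). The 3 erastin rises that did not pass with both drugs were EPRS1 and TARS1, each 0.17 above control, and IARS1 at 0.04. Their limma adjusted p was 0.0655 for EPRS1, 0.0826 for TARS1 and 0.684 for IARS1. At an unadjusted p under 0.05, limma gave 9 cytosolic enzymes higher and 8 lower with both drugs. NARS1 had risen with erastin and fell by 0.22 ± 0.07 with both (adjusted p = 0.0394), a call that was lost when leaving out 9 of the 12 samples in turn, the exceptions being tubacin 2, tubacin 3 and combination 3 (adjusted p up to 0.139, changes -0.27 to -0.16).

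The phenylalanyl-tRNA synthetase is built of the subunits FARSA and FARSB, and both fell. FARSB read 10.64, 10.57 and 10.52 in control, 10.51, 10.48 and 10.51 with erastin, 10.64, 10.64 and 10.59 with tubacin, and 9.82, 9.90 and 10.02 with both. The 3 combination samples were below all 9 others. FARSB fell by 0.66 ± 0.07 (SE; limma adjusted p = 3.31e-05) and FARSA by 0.66 ± 0.08 (SE; limma adjusted p = 0.000116). VARS1 (valine) fell by 0.55 ± 0.06, with its second probe set at -0.56, RARS1 (arginine) by 0.40, LARS1 (leucine) by 0.35, KARS1 (lysine) by 0.34 and HARS1 (histidine) by 0.33. The HARS1 call was lost without control 1, control 2 or combination sample 1 or 3 (adjusted p up to 0.0972, changes -0.43 to -0.22). QARS1 stayed at -0.04 and did not pass. Scaling to ACTB alone gave all of these genes positive values.

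MARS2, the mitochondrial methionyl-tRNA synthetase, had the largest change of any synthetase with both drugs. It read 7.45, 7.48 and 7.39 in control, 7.51, 7.70 and 7.60 with erastin, 7.42, 7.55 and 7.63 with tubacin, and 6.02, 5.98 and 6.37 with both. The combination samples were at least 1 unit below all others, which overlapped. MARS2 fell by 1.32 ± 0.11 (SE; limma adjusted p = 5.79e-06). Its cytosolic counterpart MARS1 rose by 0.43 over the same samples, so the methionine pair moved apart. MTFMT, which formylates the methionine that MARS2 loads so that mitochondrial translation can start, fell by 0.94 ± 0.11 with both drugs.

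NARS2 (mitochondrial asparagine) was next. It read 8.47, 8.08 and 8.16 in control, 8.03, 8.12 and 8.04 with erastin, 8.12, 8.13 and 8.29 with tubacin, and 7.16, 7.12 and 7.03 with both. Again only the combination samples stood apart, below all 9 others without overlap. NARS2 fell by 1.13 ± 0.10 (SE; limma adjusted p = 1.08e-05). MARS2 and NARS2 kept their direction and call under every alternative run for single genes. Scaling to ACTB alone adds 1.19, which brings both close to their control level.

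The other mitochondrial falls with both drugs were smaller. LARS2 fell by 0.61 ± 0.10, EARS2 by 0.60 ± 0.12, YARS2 by 0.52 ± 0.09, FARS2 by 0.44 ± 0.11, AARS2 by 0.38 ± 0.09, WARS2 by 0.37 ± 0.08, PARS2 by 0.27 ± 0.09 and IARS2 by 0.25 ± 0.07 (SE). PARS2 (proline) lost its call in 8 of the 12 leave-one-out fits, all but those without control 3, erastin 1, erastin 2 or combination 2 (adjusted p up to 0.137, changes -0.33 to -0.23). IARS2 (isoleucine) lost it without control 3 or combination sample 2 or 3 (adjusted p up to 0.0889, changes -0.29 to -0.21). The mitochondrial enzymes that did not pass were TARS2 at -0.22, CARS2 at -0.21, RARS2 and VARS2 at 0.01 each, and HARS2 at 0.16. All 7 probe sets of VARS2 lay between 0.00769 and 0.03 with both drugs. Some of them gave the same mean and changes, so they are not 7 independent readings. The scaffold protein AIMP1 fell by 0.44 ± 0.13 (SE; limma adjusted p = 0.0215), but not without control 3 (adjusted p = 0.0656), and it read 7.89, 7.92 and 7.99 in control, 7.85, 7.85 and 7.72 with erastin, 7.92, 7.93 and 7.94 with tubacin, and 7.72, 7.62 and 7.16 with both. Combination sample 3 was the lowest, and the changes with 1 sample left out ran from -0.54 to -0.26.

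With both drugs the cytosolic change lay above the mitochondrial one in 11 of 16 amino acid pairs. The gap was widest for methionine (MARS1 0.43, MARS2 -1.32), tryptophan (WARS1 1.09, WARS2 -0.37) and cysteine (CARS1 1.08, CARS2 -0.21). It ran the other way for arginine, valine and histidine and for both phenylalanine pairs, where RARS1, VARS1, HARS1, FARSA and FARSB fell and their mitochondrial partners had the higher values.

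**Figure D4:**
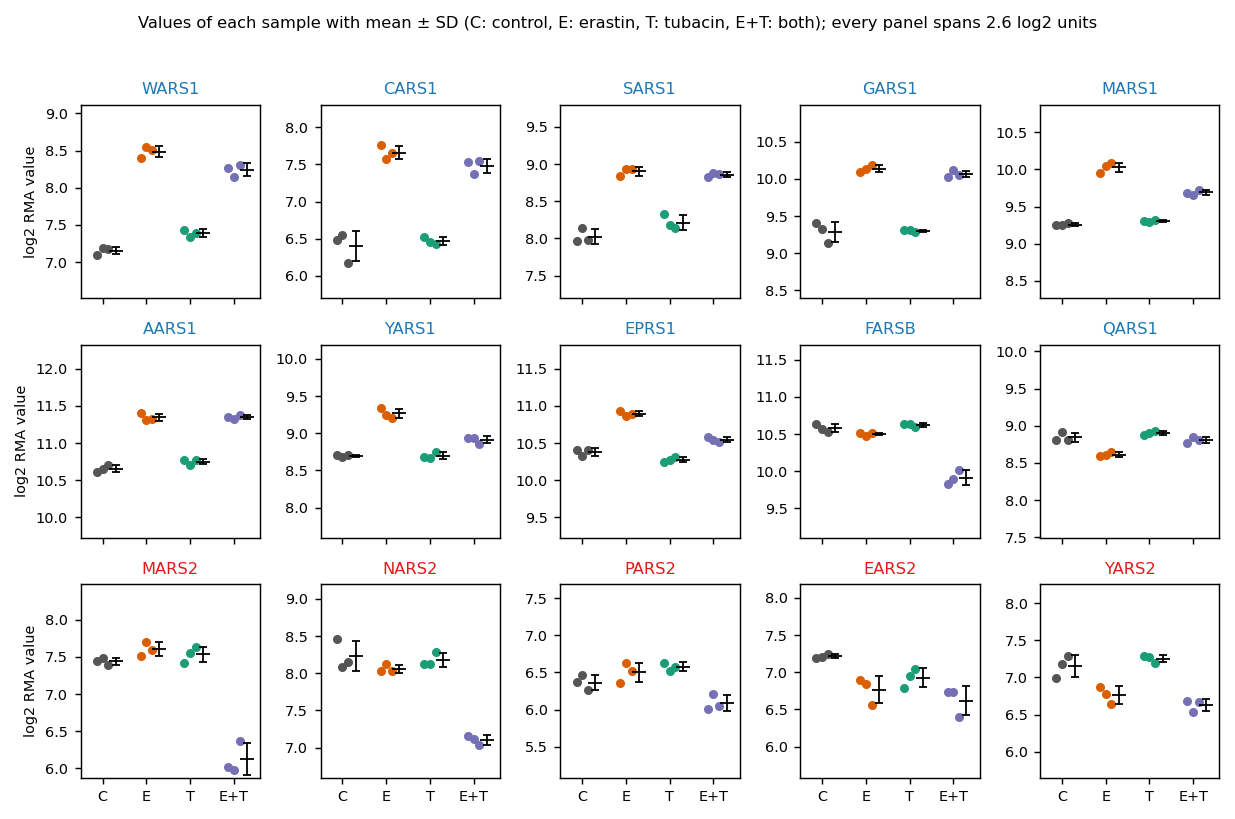
Points are log2 RMA values of the 3 samples in each group, and the bar beside them is the mean ± SD, for 10 cytosolic (blue titles) and 5 mitochondrial enzymes (red titles). WARS1, CARS1, SARS1, GARS1 and AARS1 were high in both groups with erastin, MARS1, YARS1 and EPRS1 were intermediate with both drugs, and FARSB, MARS2, NARS2 and PARS2 were lowest in the combination (positions within a panel are as deposited, without rescaling to ACTB).

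Synthetases were mostly lower with both drugs than with erastin alone, and mostly higher where the arrays were scaled to ACTB. Of the cytosolic enzymes, 13 fell and 1 rose (15 and 0 with the reference genes, 0 and 14 with ACTB), where 14.6% of all genes fell and 11.2% rose. Of the mitochondrial enzymes, 5 fell and none rose, also at an unadjusted p under 0.05 in limma and the methods' t-test (8 fell with the reference genes, and 13 rose with ACTB). The largest differences were -1.48 ± 0.11 for MARS2, -0.96 ± 0.10 for NARS2, -0.58 ± 0.07 for FARSB, -0.57 ± 0.07 for NARS1 and -0.56 ± 0.08 for FARSA (SE). Of the strongest erastin responders, AARS1 differed by 0.00 ± 0.06, SARS1 by -0.04 ± 0.08, GARS1 by -0.07 ± 0.08 and CARS1 by -0.18 ± 0.10 from erastin alone, and none of these passed the test. WARS1 was lower by -0.24 ± 0.07 (limma adjusted p = 0.034), a call lost without erastin 2, erastin 3 or combination sample 1 or 2 (adjusted p up to 0.126, changes -0.28 to -0.19). QARS1 was the cytosolic enzyme that rose, by 0.19 ± 0.06, but it turned to -0.05 with the reference genes and lost its call in 10 of the 12 leave-one-out fits, all but those without control 1 or 2 (adjusted p up to 0.126, changes 0.18 to 0.21). Among the mitochondrial calls, LARS2 was lost in 11 of these 12 fits, all but that without erastin 2 (adjusted p up to 0.162, changes -0.40 to -0.21), and TARS2 without erastin 2, erastin 3 or combination 3 (adjusted p up to 0.0955, changes -0.46 to -0.26).

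Against tubacin alone, the combination raised 8 cytosolic enzymes and lowered 7 (5 and 8 with the reference genes, 15 and 0 with ACTB), where 12.3% of all genes rose and 15.9% fell. It lowered 8 mitochondrial enzymes and raised none, also at an unadjusted p under 0.05 in limma and the methods' t-test (13 lowered with the reference genes, and 10 raised with ACTB). The rises were CARS1 by 1.01, WARS1 by 0.85, GARS1 by 0.77, SARS1 by 0.65, AARS1 by 0.60, MARS1 by 0.38, EPRS1 by 0.27 and YARS1 by 0.21. With the reference genes MARS1 (0.15), EPRS1 (0.04) and YARS1 (-0.02) no longer passed. The largest falls were -1.41 for MARS2, -1.08 for NARS2, -0.71 for FARSB, -0.66 for FARSA, -0.62 for YARS2 and -0.60 for LARS2. The calls of LARS1, NARS1, YARS1, FARS2, IARS2, TARS2 and AIMP1 (changes of -0.23, -0.24, 0.21, -0.38, -0.24, -0.39 and -0.43) did not hold in every fit with 1 sample left out. LARS1 lost its call without any erastin, tubacin or combination sample (adjusted p up to 0.113), NARS1 and YARS1 without tubacin 1 or 2 or combination 1 or 2 (up to 0.102 and 0.0985), and AIMP1 without any tubacin sample (up to 0.0634). FARS2 lost it without tubacin 1 or 3 or combination 1 or 3 (up to 0.0988), IARS2 without erastin 2, any tubacin sample or combination 2 or 3 (up to 0.118), and TARS2 without tubacin 1 or 3 or combination 3 (up to 0.0857).

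The interaction asks whether the change with both drugs equals the sum of the changes with each alone, and a negative value means that it was lower than that sum. The interaction was negative and past the threshold for 10 of 19 cytosolic and 4 of 15 mitochondrial enzymes and positive for none, also at an unadjusted p under 0.05 in limma (10 and 5 negative with the reference genes, 1 and 3 positive with ACTB). Over all genes 6.2% were positive and 8.84% negative. The largest were MARS2 at -1.57 ± 0.15 (SE; limma adjusted p = 0.000107) and NARS2 at -0.91 ± 0.14 (SE; limma adjusted p = 0.00186), then FARSB at -0.63 ± 0.10 and PARS2 at -0.62 ± 0.13. PARS2, which loads proline in mitochondria, read 6.37, 6.46 and 6.27 in control, 6.36, 6.62 and 6.52 with erastin, 6.63, 6.52 and 6.58 with tubacin, and 6.01, 6.21 and 6.05 with both. Its combination samples were the lowest 3, while its means with erastin and with tubacin were 0.14 and 0.21 above control without passing the test.

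Among the cytosolic enzymes the negative interactions covered different patterns. NARS1 (-0.59), WARS1 (-0.48), MARS1 (-0.39), YARS1 (-0.36) and TARS1 (-0.35) had risen with erastin and were lower when tubacin was added. FARSB, FARSA (-0.57), VARS1 (-0.41), LARS1 (-0.39) and RARS1 (-0.32) had not passed the test with either drug alone and fell with both. AARS1 (-0.09), GARS1 (-0.08), SARS1 (-0.23) and CARS1 (-0.25) rose with erastin and their interactions did not pass the test, with standard errors of 0.09 to 0.15. The interaction calls of LARS1, RARS1, TARS1, YARS1 and TARS2 were lost in 9, 8, 8, 5 and 9 of the 12 fits with 1 sample left out, with adjusted p up to 0.0617, 0.0805, 0.0758, 0.0599 and 0.0923. LARS1 kept its call only without control 1, tubacin 2 or combination 1, RARS1 only without control 1, erastin 3, tubacin 2 or combination 3, and TARS1 only without control 1, erastin 1, tubacin 2 or combination 1. YARS1 lost it without control 2, erastin 1, erastin 2, tubacin 3 or combination 3, and TARS2 kept it only without control 2 or combination 1 or 2.

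Genes of the amino acid response mostly rose with erastin and with both drugs. With erastin 6 of 9 listed genes rose and 1 fell (3.94% and 4.41% of all genes), and with both drugs 8 rose and 1 fell (14% and 17.1% of all genes). ASNS (asparagine synthetase) rose by 2.05 ± 0.07 with erastin and 1.81 ± 0.07 with both, CHAC1 (a glutathione-degrading enzyme) by 2.84 and 1.87, SLC7A11 (the cystine carrier of system xC-) by 2.27 and 2.94, and ATF4 by 0.57 and 0.76. EIF2AK4 fell by 0.27 and 0.50. The rise of CEBPB with both drugs, 0.23, is no larger than the shift of the reference genes, and ACTB scaling turns the fall of EIF2AK4 with both drugs to a positive value. TGATGNAA was also found in the windows of ASNS, CHAC1 and SLC3A2 among these 9 genes, beside 4.46% of all genes with windows. No match was found for the other listed genes, and how many of them have a window is not given here.

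Genes that process, modify or export tRNA were mostly lower with both drugs. Of 20 measured, 2 rose with erastin (3.94% of all genes) and none fell, namely TSEN15 (a subunit of the tRNA splicing endonuclease) by 0.92 ± 0.09 and XPOT (the nuclear exporter of tRNA) by 0.30 ± 0.07. With both drugs 14 fell (17.1% of all genes) and 1 rose (TSEN15, by 0.26), and ACTB scaling turns falls under 1.19 to positive values. The falls included ADAT2 (tRNA adenosine deamination) by 1.08, PUS1 and PUS7 (pseudouridine synthases) by 1.07 and 1.05, TSEN54 by 0.98, NSUN2 and QTRT1 (tRNA base modification) by 0.86 each, and TRNT1, which adds the CCA end that synthetases charge, by 0.78 ± 0.08.

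Partners of charging were the next list. Of 10 measured, 1 fell with erastin, near the 4.41% of all genes, and 6 fell with both, where 17.1% of all genes fell, including MTFMT, TARS3 (a second threonyl-tRNA synthetase gene) by 0.64, DTD2 (which removes wrongly attached amino acids) by 0.50, and QRSL1 and GATC, subunits of the mitochondrial enzyme that makes glutaminyl-tRNA, by 0.44 and 0.39. Beside the same 17.1%, of 6 mitochondrial translation factors 4 fell with both drugs, by 0.56 for TSFM, 0.48 for MTRF1, 0.39 for GFM1 and 0.22 for MTIF2, the last of which had risen by 0.30 with erastin. Of 3 measured cytosolic elongation factors EEF1A2 and EEF2 rose with both drugs, by 0.84 and 0.21, where 14% of all genes rose, and EEF1D fell by 0.47. The EEF2 rise is smaller than the shift of the reference genes. ACTB scaling turns each of these falls to a positive value.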

How the data were processed

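The authors deposited log2 values of 53617 probe sets, normalized by RMA according to their methods and the processing notes of the submission. No version of RMA was found in those sources. Probe sets with exactly 1 symbol (23866) were kept, and a gene with several was represented by its brightest one, judged by the mean of all 12 samples, which gave 22392 genes. Detection calls were not used here. One linear model with 4 group means was fitted in R 4.3.3 with limma 3.58.1 (lmFit, eBayes), p-values were adjusted by Benjamini-Hochberg over all genes of each of 6 comparisons, and the threshold was 0.05. The median standard error of a change was 0.136, and 3 arrays per group limit the precision. The fit was tested on simulated data. Members and lists were chosen with earlier results of these data known. All members are named, and each sample's value is given for the 8 largest called changes with erastin and with both drugs, the 4 largest interactions, and called members that moved against their class, with YARS2, EARS2 and AIMP1 added after their values were seen. Alternatives varied the scaling, normalization, dim-gene filter, probe set choice, variance moderation, samples fitted, threshold, pairing and test (the methods' t-test). The labels number the lines from HCC38 upward in one field, while titles and cell line entries give HCC38 for all, which was used.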

Additional observations from a re-analysis of the deposited data

Results flagged for a closer look

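For 14 synthetases the effect of erastin differed with and without tubacin by the test of the interaction itself (limma, adjusted p under 0.05), each on the log2 scale and each lower than the sum of the single effects. The cytosolic values were -0.32 for RARS1, -0.35 for TARS1, -0.36 for YARS1, -0.39 for MARS1, -0.39 for LARS1, -0.41 for VARS1, -0.48 for WARS1, -0.57 for FARSA, -0.59 for NARS1 and -0.63 for FARSB. The mitochondrial values were -0.56 for TARS2, -0.62 for PARS2, -0.91 for NARS2 and -1.57 for MARS2. Scaling to ACTB alone adds 0.909 to each which leaves MARS2 below 0 and brings NARS2 close to 0.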

How the results depend on the processing

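Leaving out 1 sample gave 11 cytosolic calls with erastin each time, 12 to 15 with both drugs, and 0 with tubacin. The cytosolic interactions ranged from 6 to 10 (6 without control 2, erastin 2 or tubacin 3), the mitochondrial calls with erastin from 0 to 2, those of the combination against erastin from 3 to 4 (3 without erastin 3 or combination 3), and those against tubacin from 5 to 8 (5 without tubacin 1, tubacin 3 or combination 3). The 2 mitochondrial calls with erastin became 1 after a further quantile normalization, 0 with the reference genes, ACTB, the replicate block, a threshold of 0.01, a fit of the 2 groups alone or the methods' t-test after Benjamini-Hochberg adjustment, and 4 with the filter on dim genes or with trend and robust moderation. The 5 of the combination against erastin became 3 with quantile or cyclic loess normalization, the replicate block, the 0.01 threshold or the 2 groups alone, 2 with the adjusted t-test, 8 with the reference genes and 13, all higher, with ACTB. The 8 against tubacin became 13 with the reference genes and 5 with the 0.01 threshold, the 2 groups alone or the adjusted t-test. The 10 with both drugs against control became 6 with the adjusted t-test. The 12 cytosolic calls with erastin became 2 with ACTB, and the 10 cytosolic interactions became 1 with ACTB and 4 at the 0.01 threshold. With tubacin the unadjusted t-test gave 4 cytosolic and 3 mitochondrial calls. The replicate block left 11 cytosolic calls with erastin and 13 with both drugs. Deviations of samples with the same number correlated between -0.06 and 0.05 over 18 pairs. Those of samples with other numbers correlated between -0.06 and 0.07 over 36 pairs. No shared deviation by number was seen, which cannot show whether samples were handled in matched sets. The cause of these changes was not tested.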
